A study of Homo sapiens with 4 samples.

Results

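Of 151102 merged regions of open chromatin, 31869 were found in all 4 libraries of the series, and 2201 of these shared regions stood high in the LNCaP libraries and low in the enzalutamide-resistant ones. These 2201 regions were chosen by the measured scores. Windows reaching 250 bp to each side of every summit were merged where they overlapped, and the best score of each library in a shared region was turned into a percentile, the percent of shared regions with an equal or lower score in that library. A region was kept when its resistant mean was at least 40 percentile points below its LNCaP mean and both resistant percentiles were below both LNCaP percentiles.

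The assay was ATAC-seq, which uses a transposase to tag open DNA with adapters for sequencing. LNCaP is an androgen-dependent prostate cancer cell line, labelled WT here, and the other group is labelled LNCaP-resistance, with enzalutamide as its treatment and neither a dose nor a subline in the labels. The study derived its resistant sublines from LNCaP by stepwise exposure to enzalutamide, an antiandrogen, in androgen-depleted serum, and both groups were grown in serum-containing medium by the labels. Each group had 2 libraries, so the smallest two-sided p of an exact permutation test is 0.33 and no difference between the cell types was tested. The intervals below are 95% Wilson intervals over regions and cover counting error only. The labels do not say whether the 2 libraries of a group came from separate cultures.

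An open region at a gene start is a promoter, where transcription is initiated, and many promoters are rich in CG dinucleotides and open in most cell types. Open regions far from gene starts are often enhancers, which are bound by lineage factors such as FOXA1 and HOXB13 in prostate cells and differ more between cell types. A summit score here has the form of a significance of the signal at a peak over its background, and is not a size of enrichment. A region that is present in both cell types can still differ in rank between them.

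The lists held 117245 and 107344 summits in LNCaP and 70866 and 45618 in the resistant cells, and they carry no read counts, so depth is unknown and a low score from few reads cannot be told apart from a less open region. Each of the prostate markers FOXA1, HOXB13, KLK3, TMPRSS2, KRT8 and KRT18 had between 1 and 5 summits within 3 kb of its gene ends in every library. Percentiles over the shared regions correlated with Pearson r = 0.892 between the LNCaP libraries and 0.893 between the resistant libraries, and with r between 0.535 and 0.580 across cell types. These are correlations over 31833 regions of the main chromosomes that share libraries and are given as a description.

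The sequences in front of 3 gene starts that lie in regions of the set, and in front of 1 gene start in the opposite set, are shown because they display a property that the selection did not use, the scarcity of CG dinucleotides in the promoters that ranked lower. Each line gives the 250 bases before the RefSeq gene start on the transcribed strand of GRCh38.p14, 5′ to 3′, with every CG in capitals. The positions are chr17:2965896-2966145 for RAP1GAP2-AS1, chr6:5458076-5458325 for FARS2-AS1, chr5:35938623-35938872 for CAPSL and chr13:28718971-28719220 for SLC46A3, all on the minus strand.
RAP1GAP2-AS1: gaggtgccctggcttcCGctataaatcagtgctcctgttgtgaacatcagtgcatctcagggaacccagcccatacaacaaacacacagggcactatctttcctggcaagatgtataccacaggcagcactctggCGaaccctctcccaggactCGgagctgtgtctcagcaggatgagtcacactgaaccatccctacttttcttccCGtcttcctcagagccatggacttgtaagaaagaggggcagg
FARS2-AS1: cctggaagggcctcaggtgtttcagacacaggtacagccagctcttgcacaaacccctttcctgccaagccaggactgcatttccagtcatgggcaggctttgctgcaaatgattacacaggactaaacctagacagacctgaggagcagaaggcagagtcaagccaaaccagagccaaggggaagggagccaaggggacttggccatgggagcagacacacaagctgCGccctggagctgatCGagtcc
CAPSL: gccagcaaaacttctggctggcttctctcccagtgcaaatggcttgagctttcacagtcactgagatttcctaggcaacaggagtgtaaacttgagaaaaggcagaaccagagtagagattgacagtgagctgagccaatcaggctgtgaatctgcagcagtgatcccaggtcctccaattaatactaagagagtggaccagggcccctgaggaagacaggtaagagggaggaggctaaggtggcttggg
SLC46A3: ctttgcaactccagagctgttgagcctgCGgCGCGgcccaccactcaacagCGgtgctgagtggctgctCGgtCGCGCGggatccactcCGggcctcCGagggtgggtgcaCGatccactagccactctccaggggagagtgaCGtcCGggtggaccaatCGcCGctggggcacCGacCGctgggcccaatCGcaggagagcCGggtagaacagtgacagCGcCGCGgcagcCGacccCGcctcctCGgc
The RAP1GAP2-AS1 sequence holds 4 CG dinucleotides, that of FARS2-AS1 holds 2 and that of CAPSL, a calcium-binding protein gene, holds 0. The SLC46A3 sequence, of a lysosomal transporter gene whose region stood at percentiles 12.5 and 0.455 in the LNCaP libraries but 99.1 and 94.3 in the resistant ones, holds 25. The contrast is one of groups and not of every pair, since the region at LOC105369209 in the set has 7 and that at LINC02837, which ranked higher, has 6.

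The size of the set follows from the selection and is a description. The 2201 regions were 6.91% of the shared regions, and 4.74%, or 1509 regions, met the reverse rule and ranked higher in resistance. Both resistant percentiles were below both LNCaP percentiles in 30% of shared regions, and every shared region with a difference of -40 or less was also separated in this way. The difference in the set ranged from -96.3 to -40.0013 percentile points with a median of -51.8, whereas the median over shared regions was 1.53. The median of the mean percentile was 77.1 in LNCaP and 19.7 in the resistant cells. The pooled SD between replicates had a median of 7.47 points in the set and 7.17 over all shared regions. In 70.2% of the set the difference was larger than 5 pooled SD. That share follows largely from the rule, which required at least 40 points and no overlap, and tests nothing. A complete exchange of rank was rare. Both LNCaP percentiles were at 90 or above in 320 regions and both resistant percentiles were at 10 or below in 334, but only 17 regions had both.

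**Figure D1:**
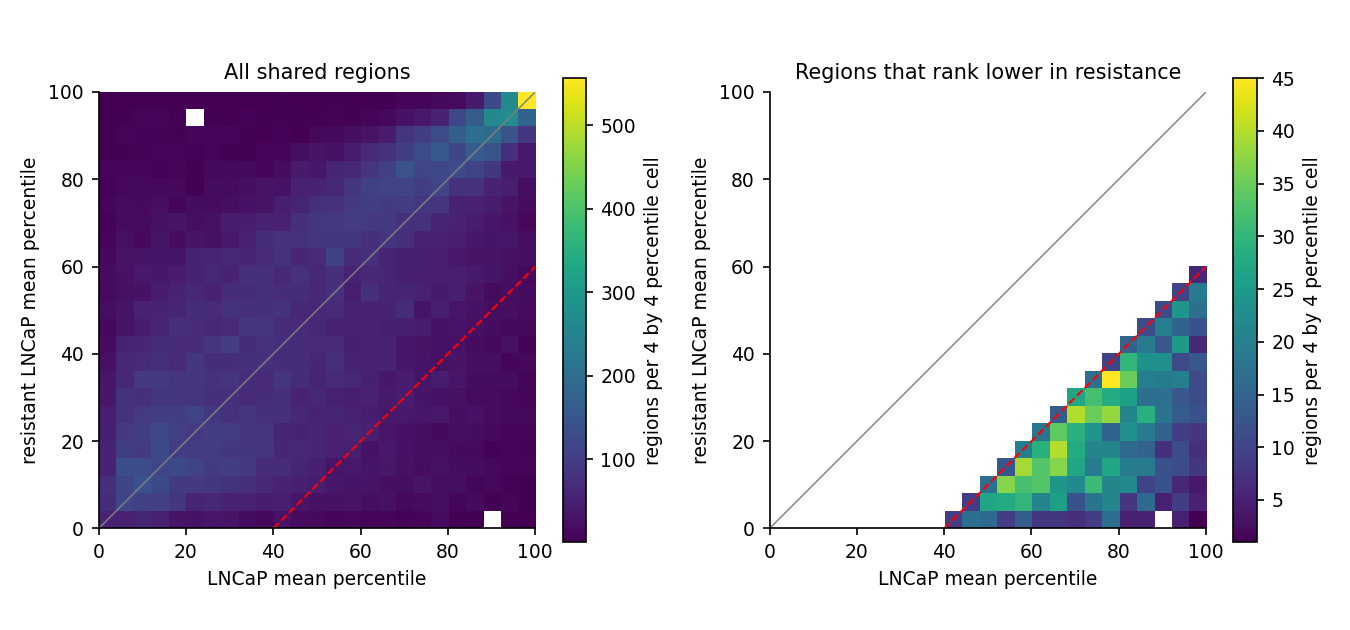
Regions counted in cells of 4 by 4 percentile points, by mean LNCaP percentile (x axis) and mean percentile in resistant LNCaP cells (y axis), for all shared regions (left) and for those that rank lower in resistance (right), with white cells empty, the diagonal in grey and a difference of -40 dashed in red. The set fills the wedge under the red line and is densest near it, with 69 regions at a difference of -80 or less.

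At the threshold the set passed without a step into its surroundings. The 5 regions just inside had differences between -40.0169 and -40.0013, and the 5 just outside had differences between -39.973 and -39.9448. A difference of -50 or less was seen in 1240 regions and of -60 or less in 625.

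The raw scores showed how low the resistant values were. The median best score of the set was 42.5 and 34.9 in the LNCaP libraries against 26.3 and 20.9 over all shared regions, and it was 17.1 and 5.90 in the resistant libraries against 36.9 and 15.3 over all shared regions. Both resistant scores were below both LNCaP scores in 2133 of the 2201 regions. The rule used percentiles of these same scores, so this count follows largely from the selection. The share over all shared regions was not computed. A score under 10 was held by 84.0% of the set in resistant replicate 2 and 22.6% in resistant replicate 1, against 35.2% and 8.02% of shared regions, and by 0 regions of the set in either LNCaP library. When summits under a score of 10 were removed, 1260 of 17904 shared regions met the rule, that is 7.04%, and they overlapped 345 of the 2201. Without resistant replicate 2, which had the fewest summits, 3333 of 43144 shared regions met the rule, that is 7.73%. They overlapped 1164 of the 2201, that is 52.9%.

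The same measure could be read in a replicate whose percentiles were not used for the choice. All 4 libraries still decided which regions were shared. Since separate cultures are not stated, this reading is not an independent repeat. When regions were chosen with a difference of -40 or less between the replicates numbered 1, 2408 regions resulted, and 97.4% of them were also lower in resistance between the replicates numbered 2, with a median of -46.4 points and 59.8% at -40 or less. Over all shared regions 46.2% were lower between the replicates numbered 2, the median was 1.86 and 8.54% were at -40 or less. The reverse choice gave 2719 regions, of which 96.2% were lower between the replicates numbered 1, with a median of -41.7 points and 53.0% at -40 or less, against 47.7%, 0.932 points and 7.56% of all shared regions.

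Of the 10 most negative regions, 7 lay inside genes and 3 between genes. The most negative region, chr5:171610569-171611159, lay between genes, 26211 bp from the end of the noncoding gene LOC124901134. It stood at percentiles 98.0 and 99.7 in LNCaP and at 4.89 and 0.235 in the resistant cells. Inside GLIS1, which encodes a Krüppel-like zinc finger transcription factor, chr1:53592461-53593146 stood at 99.2 and 99.7 in LNCaP and at 10.6 and 0.0126 in the resistant cells. In both regions the LNCaP values lay together at the top and the resistant values apart from them at the bottom.

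The other 8 spanned differences from -93.1 to -90.4. They lay in SRGAP3, a GTPase-activating protein gene of the Slit-Robo pathway, in ARHGAP40, near ETS2-AS1, near LOC105370617, in DAGLA, which makes the endocannabinoid 2-arachidonoylglycerol, in RAP1GAP2 at the start of RAP1GAP2-AS1, in CSMD2 and in CCDC192. The region at RAP1GAP2-AS1, whose sequence is printed above, went from 98.7 and 97.5 to 9.13 and 4.97. In DAGLA, chr11:61699633-61700670 went from 95.4 and 96.4 to 4.79 and 4.79. The pooled SD between replicates was between 0.521 and 5.32 points over the 10 regions. The resistant scores repeat at this end of the range, and the regions in SRGAP3 and CSMD2 and near ETS2-AS1 shared the same resistant scores of 6.51 and 2.22.

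The 10 regions that stood highest in LNCaP had resistant mean percentiles between 25.3 and 57.0, apart from that in GLIS1 at 5.33. The strongest of them, chr20:59826358-59826898 in PHACTR3, a phosphatase and actin regulator gene, had percentiles of 99.97 and 100 in LNCaP and 32.5 and 34.2 in the resistant cells. In LMO7, which encodes a LIM domain protein of cell junctions, chr13:75803032-75803549 had 99.8 and 99.9 against 47.5 and 50.9. In ANK3, the ankyrin-G gene, chr10:60267737-60268259 had 99.7 and 99.7 against 20.9 and 29.7. The others were in FAM174B, GOLGA4, SLC39A14, LOC105378314 and CAPSL and near PXYLP1, with differences between -66.1 and -42.6. Without resistant replicate 2 the difference was -30.7 in SLC39A14, -30.1 in CAPSL, -37.8 near PXYLP1, -29.4 in GOLGA4, -31.1 in LOC105378314 and -39.1 in LMO7, so that these 6 no longer met the rule.

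**Figure D2:**
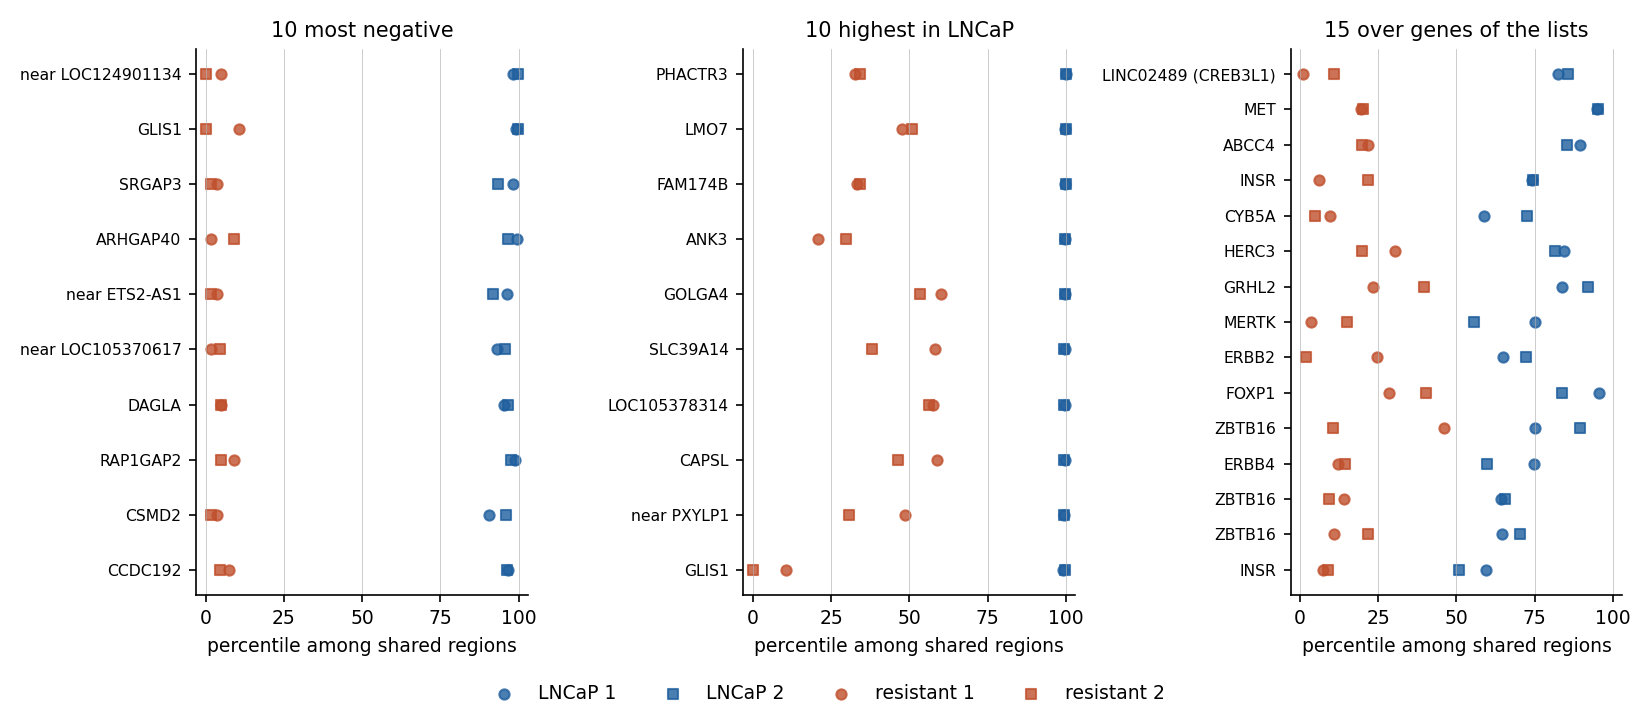
Percentile among shared regions (x axis) in each of the 4 libraries for 3 groups of regions (rows), named by the gene they lie in or near, with blue for LNCaP, orange for resistant LNCaP, circles for replicate 1 and squares for replicate 2. In each row both orange symbols lie to the left of both blue symbols, as the selection requires, and the resistant mean minus the LNCaP mean is -90.4 points or less in the left panel and -42.6 points or less in the middle panel.

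The set lay away from gene ends, which the selection did not use. Within 3 kb of a gene end were 21.4% of the set (472 regions, interval 19.8% to 23.2%), 49.95% of all shared regions and 52.3% of the regions that ranked higher. Inside a gene and away from its ends were 54.5% of the set (52.4% to 56.5%) against 32.5% of shared regions, and between genes were 24.1% against 17.5%. The median distance to a gene end was 10727 bp in the set, 3019 bp over shared regions and 2422 bp in the regions that ranked higher. The rule cannot take a region with a LNCaP mean percentile under 40, and the lowest in the set was 41.5, so the same was computed for the 18600 shared regions at or above that lowest value. Of these, 54.8% were within 3 kb of a gene end, and 4.63% of the ones near a gene end, 21.2% of the ones inside genes and 19.3% of the ones between genes were in the set. In every alternative that chose the regions anew among all shared regions the set held a smaller share near a gene end, from 18.4% to 23.7%, than the shared regions of that setting, from 43.5% to 62.5%.

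Location went with the rank difference over all shared regions. The median difference over all shared regions was 6.52 points near gene ends, -6.04 inside genes and -4.85 between genes. Ranks are relative, and a rise of promoters and a fall of other regions cannot be told apart from them. More than 3 kb from a gene end lay 15931 shared regions, 1729 of them in the set. When only these shared regions were ranked among themselves, 1356 met the rule and overlapped 1313 of the 1729. This alternative was chosen after seeing the data.

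For gene starts the strand is needed, and it was known for 27302 genes outside chromosome 8. Within 250 bp of a gene start were 61 of 2087 regions of the set, that is 2.92% (2.28% to 3.74%), against 25.8% of shared regions and 28.3% of the regions that ranked higher. The share of shared regions that belonged to the set rose with distance, from 0.776% (0.605% to 0.996%) within 250 bp to 1.59% up to 1 kb, 5.07% up to 3 kb, 9.04% up to 10 kb and 11.5% (10.3% to 12.8%) beyond 100 kb. Regions that ranked higher took a nearly constant share, between 3.90% and 5.20%. Among regions with a LNCaP mean percentile of 41.5 or more the share in the set went from 1.02% within 250 bp to 22.4% beyond 100 kb. Near gene ends downstream, 2.73% of the set and 2.40% of shared regions were within 1 kb of a 3′ end and not of a start.

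**Figure D3:**
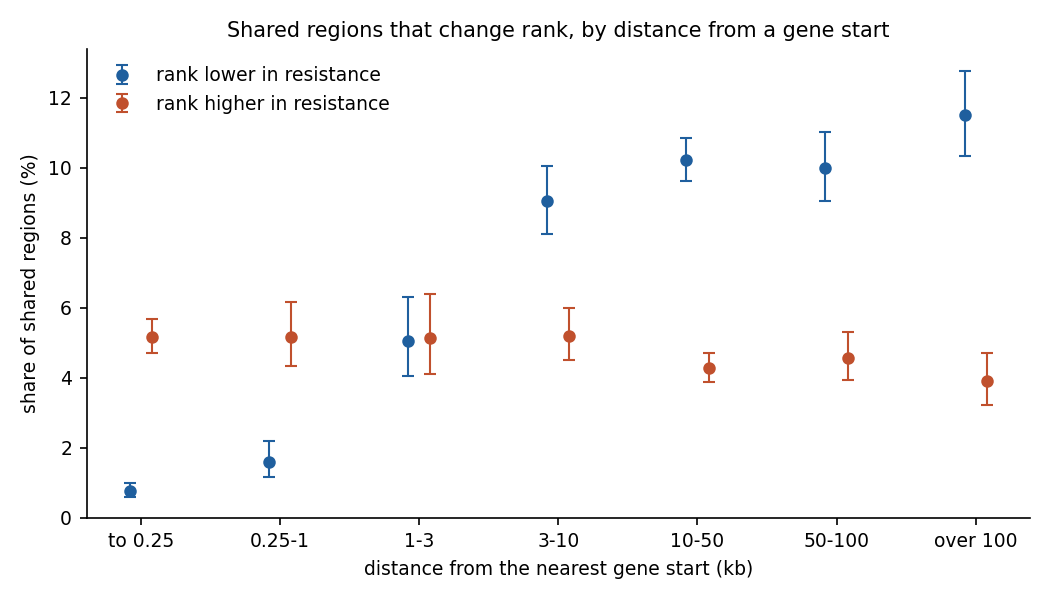
Share of shared regions (%, y axis) that rank lower (blue) or higher (orange) in resistance, by distance from the nearest gene start (kb, x axis), with 95% Wilson intervals as bars. The blue share climbs from 0.776% within 0.25 kb to 11.5% beyond 100 kb, while the orange share stays between 3.90% and 5.20%.

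The promoters that did enter the set were poor in CG dinucleotides. A summit of LNCaP replicate 1 lay in the window from 250 bases before to 50 bases after a RefSeq gene start in 6832 shared regions, and 55 of these were in the set. The number of CG dinucleotides in the 250 bases before the start had a median of 4 (quartiles 3 and 9) in the set, 22 (16 and 28) in the other shared promoters, 22 in the promoters that ranked higher and 11 over all 35116 starts of the table. The GC content had a median of 52.8% in the set and 65.6% in the other shared promoters. Of the 55, 31 had 5 or fewer CG dinucleotides, that is 56.4%, against 4.90% of the other shared promoters. The share of shared promoters that were in the set was 8.54% (6.08% to 11.9%) with 0 to 5 CG dinucleotides, 3.36% with 6 to 10 and between 0.0789% and 0.325% in each class above. Among the promoters with a LNCaP mean percentile of 41.5 or more it was 12.7%, 4.40% and between 0.0980% and 0.404%. The share of all shared promoters that ranked higher was 7.71% with 0 to 5 CG dinucleotides, 7.17% with 6 to 10 and between 3.29% and 6.43% in each class above. Promoters with 0 to 5 CG dinucleotides thus changed rank in both directions, and their median difference was -1.65 points. Protein-coding genes accounted for 33 of the 55 starts and noncoding RNA genes for 22, whereas 86.6% of the other shared promoters were those of protein-coding genes.

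**Figure D4:**
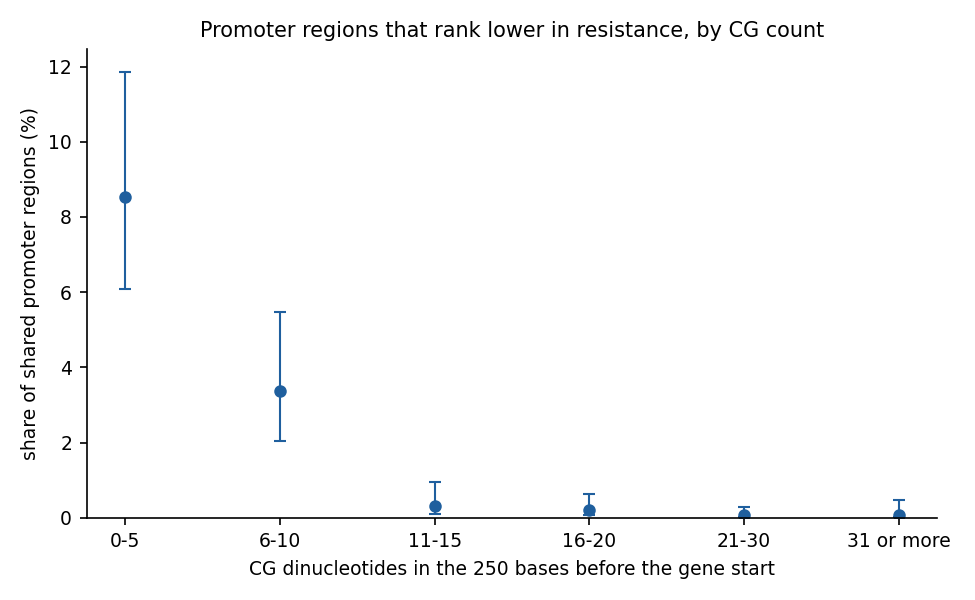
Share of shared promoter regions (%, y axis) that rank lower in resistance, by the number of CG dinucleotides in the 250 bases before the gene start (x axis), with 95% Wilson intervals as bars. The share is 8.54% in the class with 0 to 5 CG dinucleotides and at most 0.325% in every class from 11 upward. The share that ranks higher, not drawn, is 7.71% in the class with 0 to 5 CG dinucleotides and 7.17% in the next class.

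Among the 33 coding promoters several belong to genes with a known role, and these were picked after their values were seen. HLA-DMA, which loads peptides onto class II molecules, had percentiles of 98.1 and 92.6 in LNCaP and 56.3 and 40.6 in the resistant cells. ANO7, a gene expressed mainly in the prostate, had 62.0 and 74.7 against 36.7 and 5.85. AGT, the angiotensinogen gene, had 57.1 and 61.02 against 8.99 and 16.9. SORT1, the sortilin gene, had 68.2 and 82.4 against 21.6 and 26.8. In all 4 genes both resistant values lay below both LNCaP values, as required, and their sequences hold 3, 5, 9 and 2 CG dinucleotides.

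Short motifs were searched on both strands of these windows, and the other promoters poor in CG dinucleotides serve as a second background. The GC box GGGCGG was present in 23.6% of the 55 windows, 70.6% of the other shared promoters and 42.6% of all starts, but in 30.3% of the other shared promoters with 10 or fewer CG dinucleotides. The ETS motif CCGGAAG was present in 3.64%, 18.3%, 8.52% and 7.21% of the same groups. The steroid receptor monomer site AGAACA was present in 16.4% of the 55, 6.63% of the other shared promoters, 12.4% of all starts and 14.9% of those poor in CG dinucleotides. The forkhead motif TGTTTAC was present in 9.09%, 2.33%, 2.98% and 7.21%. The CCAAT box, with the letters CCAAT, was present in 27.3% of the 55, 39.8% of the other shared promoters, 32.0% of all starts and 43.3% of those poor in CG dinucleotides. The other motifs searched were CCATAAA for HOXB13, AGATAA for GATA factors, TGANTCA for AP-1, TTGGCA for the NFI monomer site, the E-boxes CAGCTG and CACGTG, AACNGGTT for grainyhead factors, ACATTCC for TEAD, TGTGGTT for RUNX, TGACGTCA for CRE and ACAATGG for SOX factors, which were present in between 0% and 18.2% of the 55 and between 0.974% and 13.2% of the other shared promoters. The full NFI site, which contains the monomer site, the CTCF core and the NRF1 site matched 0 of the 55 windows. They were rare in the backgrounds too, at 0%, 0.0885% and 1.86% of the other shared promoters and at most 0.131% of those poor in CG dinucleotides. These are matches to letters in 55 windows of 250 bases, and the regions of the set that lie away from gene starts were not searched.

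The genes of 5 lists were examined from 3 kb before to 3 kb after each gene, beside a background of 8.38%, the share of the 14502 protein-coding genes with a shared region that held a region of the set (1215 genes). This background was not matched for the number of shared regions per gene. Of 28 androgen-regulated genes with a shared region, 3 held a region of the set. ZBTB16, an androgen-induced transcriptional repressor, held 4 of its 19 shared regions, and the first of them, chr11:114078272-114078799, went from 64.2 and 65.4 in LNCaP to 13.95 and 9.28 in the resistant cells. ABCC4, an exporter of cyclic nucleotides and prostaglandins, held chr13:95271129-95271809, which went from 89.5 and 85.3 to 21.8 and 19.8. HERC3, a ubiquitin ligase gene, held chr4:88659264-88659790, which went from 84.4 and 81.6 to 30.3 and 19.8. KLK3, which encodes prostate-specific antigen, and CAMKK2 held no region of the set within 3 kb, and together they held 2 regions that ranked higher. Extended to 25 kb on either side, KLK3 and CAMKK2 each had a region of the set, as did KLK2. By regions, 6 of the 79 shared regions over these genes were in the set, that is 7.59% (3.53% to 15.6%), near the background of 6.91%. Without resistant replicate 1 the number of genes was 5. Without resistant replicate 2 a region of ZBTB16, chr11:114098859-114099833, went from a difference of -54.1 to -26.1, and that of HERC3 from -57.9 to -39.5.

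Of 21 luminal lineage genes with a shared region, 8 held a region of the set, with 9 of 66 regions, that is 13.6% (7.34% to 23.9%), beside 6.91% of all shared regions. The most negative lay within 3 kb of CREB3L1, a membrane-bound transcription factor gene, and inside the noncoding LINC02489, where chr11:46273822-46274722 went from 82.5 and 85.7 to 1.04 and 10.8. In GRHL2, a grainyhead factor of epithelial cells, chr8:101583297-101584311 went from 83.6 and 92.0 to 23.4 and 39.7. FOXP1, a forkhead factor gene, held 2 regions, of which chr3:71395356-71395883 went from 95.4 and 83.7 to 28.4 and 40.4. The 3 ETS factors of epithelia each held 1 region, SPDEF at -42.1, EHF at -46.9 and ELF3 at -44.3. FOLH1, which encodes prostate-specific membrane antigen, held 1 at -41.0. The region near HOXB13, chr17:48722212-48722866, lies at the start of the neighbouring PRAC1 and went from 34.4 and 62.2 to 7.55 and 1.96, with the LNCaP replicates far apart. FOXA1, GATA3, FOXP1 and AGR2 also held regions that ranked higher, 5 of the 66, beside 4.74% of all shared regions. The median difference over the 66 regions was 5.30 points, beside 1.53 over all shared regions. The luminal genes thus held regions of both kinds and did not rank lower as a group. Without resistant replicate 1, and likewise without resistant replicate 2, 5 luminal genes held a region of the set in place of 8, and 2 did when ranks were taken away from gene ends. That ranking left out the regions of HOXB13, SPDEF, EHF, ELF3 and CREB3L1 in advance, because they lie within 3 kb of a gene end.

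Of 20 growth factor receptor genes, 6 held a region of the set, with 8 of 65 regions, that is 12.3% (6.37% to 22.5%), and the list held 1 region that ranked higher, over AXL. The background of 6.91% lies within this interval. All of these regions of the set but that of KIT lay more than 3 kb from a gene end, and 11.6% of all shared regions inside genes and away from their ends were in the set. MET, the receptor of hepatocyte growth factor, held the most negative, chr7:116780814-116781460, which went from 94.9 and 95.1 to 19.6 and 20.1. INSR, the insulin receptor gene, held 2, of which chr19:7179134-7179759 went from 74.2 and 74.4 to 6.03 and 21.9. MERTK held 2 at -56.1 and -44.8. ERBB2, the HER2 gene, held chr17:39716767-39717347, which went from 64.8 and 72.2 to 24.7 and 1.94, and its difference of -55.2 was -32.4 without resistant replicate 2. ERBB4 held 1 at -54.0 and KIT, the stem cell factor receptor gene, 1 at -40.8. In each of these regions the 2 groups were apart by the selection, and the replicates lay closest together in MET, with a pooled SD of 0.289 points.

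Of 13 steroid receptor and androgen metabolism genes with a shared region, 2 held 1 region each, and 6 genes held one without resistant replicate 2. CYB5A, whose cytochrome b5 assists androgen synthesis by CYP17A1, held chr18:74282240-74282976, which went from 58.6 and 72.6 to 9.50 and 4.70. HSD17B4, a peroxisomal enzyme that oxidises steroids and fatty acids, held 1 at -42.2. Of 17 neuroendocrine genes with a shared region, 0 held a region of the set among 26 shared regions, which allows a share of up to 11.5% by 3 counts of the total. Extended to 25 kb on either side, the androgen-regulated genes had 7 of 28 members with a region of the set, the luminal genes 9 of 23, the receptors 6 of 20, the steroid genes 2 of 15 and the neuroendocrine genes 1 of 18, CELF3, beside 12.1% of protein-coding genes.

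The genes that held the most regions of the set were long. LPP, which encodes a LIM protein of focal adhesions, held 5 among its 15 shared regions, with LNCaP mean percentiles between 73.9 and 89.6 and resistant ones between 6.35 and 26.0. RBFOX1, a splicing regulator, held 4 of 8, DLG2, a synaptic scaffold, 4 of 9, KCNMA1, the BK potassium channel, 4 of 11, RAD51B, a recombination factor, 4 of 15 and ZBTB16 4 of 19. LPP also held 24 regions found in both LNCaP libraries and neither resistant one and 2 of the reverse kind, and KCNMA1 held 37 and 3. Over the whole genome these numbers were 41527 and 5800. Over protein-coding genes 151 held 2 or more regions of the set and 26 held 3 or more.

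Shared regions near the set had differences around those of all shared regions. Within 5 kb of a region of the set, the other shared regions had a median difference of 6.98 points (169 pairs) and 2.37% of them were at -40 or less. At 5 to 10 kb the median was -1.57 (395 pairs), and at each greater distance up to 2000 kb it was between 0.255 and 1.23, beside the 1.53 of all shared regions. The share at -40 or less was 8.61% at 5 to 10 kb, 9.82% at 10 to 20 kb and 7.65% at 20 to 50 kb, beside the background of 6.91%. Counted from centre to centre, 37 regions of the set, 1.68%, had another region of the set within 10 kb, and 1.76% of all shared regions had one. Within 50 kb it was 284 regions of the set, 12.9%, and 10.9% of all shared regions.

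**Figure D5:**
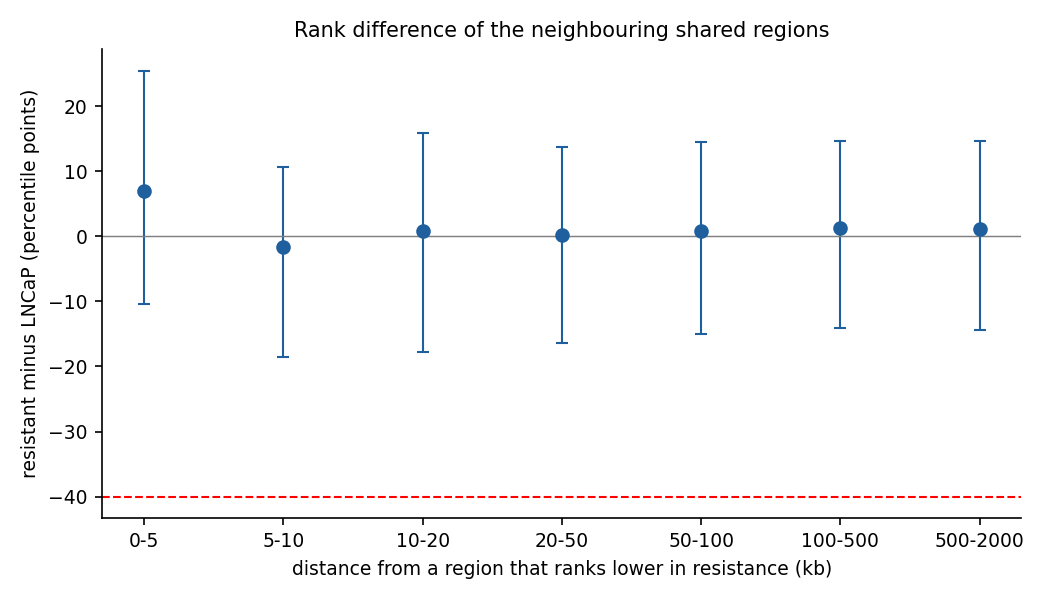
Resistant minus LNCaP mean percentile (y axis) of the other shared regions around regions that rank lower in resistance, by distance (kb, x axis), with points at the median and bars from the first to the third quartile, the selection limit of -40 dashed in red. Medians lie between -1.57 and 6.98 points at all distances, and the median over all shared regions is 1.53.

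In 18 places 3 or more consecutive shared regions were all in the set. How many such runs a random placement of the set would give was not computed, so the runs are a description. The tightest lay in DGLUCY on chromosome 14, where 3 regions within 15787 bp had differences between -62.7 and -59.7. In RASSF5, a Ras effector gene, 3 regions within 29876 bp had differences between -72.6 and -58.1, and in SIPA1L3, 3 regions within 22524 bp between -79.0 and -47.9. The longest runs held 4 regions, in and beside GRIN2B on chromosome 12 and over the UGT2B4 to MUC7 genes on chromosome 4, which hold enzymes of steroid glucuronidation and sulfation next to milk and salivary proteins.

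Of the regions in the set, 86.4% (84.9% to 87.8%) had a LNCaP-only region, found in both LNCaP libraries and neither resistant one, as their nearest region of either one-cell-type kind, against 83.3% of all shared regions and 80.4% of the regions that ranked higher. With equal numbers of summits per library these shares were 58.8% and 49.5% for the set and for all shared regions, so the level depended on the lengths of the lists.

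Chromosomes contributed unequally. The share of shared regions that were in the set was lowest on chromosome X, at 2.78% (1.82% to 4.21%), and on chromosome 19, at 3.13% (2.37% to 4.11%), and high on chromosomes 21, at 10.4% (7.66% to 14.04%), and 3, at 9.29% (8.09% to 10.7%). Among regions more than 3 kb from a gene end, of which 10.9% were in the set, the same chromosomes had 5.37% and 6.86% against 15.1% and 14.6%.

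Within the regions of the set the LNCaP summits coincided more closely than the resistant ones. The best summits of the 2 LNCaP libraries were a median of 12 bp apart, and over 100 bp apart in 5.04% of the set, against 18 bp and 12.9% over all shared regions. The best summits of the 2 resistant libraries were a median of 31 bp apart, and over 100 bp apart in 18.1%, against 20 bp and 15.1% over all shared regions. In the regions that ranked higher the order was the reverse, with 33 bp between the LNCaP and 16 bp between the resistant summits. By the selection, scores in the set were high in LNCaP and low in resistance. Regions of equal score were not compared, so a link of these distances to score was not tested. Between cell types, the best summits of the replicates numbered 1 were a median of 20 bp apart in the set and 19 bp over all shared regions, and those of the replicates numbered 2 were 34 and 27 bp apart.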

How the data were processed

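ATAC-seq was performed on LNCaP and enzalutamide-resistant LNCaP cells (2 libraries each). For each library the authors deposited its peak summits with a score of the −log10 p-value or q-value form (which one is not given in the sources used here). The scores of each list start just above the value of 0.05 (lowest scores 1.31 to 1.34). The submitters' processing notes name Bowtie2 2.2.5, SAMtools 1.6, MACS2 2.2.6, deepTools 3.5.2, HOMER 4.11 and edgeR 3.22.5 and the build hg38. No reads were counted here, so depth and its precision are unknown.

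Regions, percentiles and shares were computed with pandas 2.3.3 and numpy 2.4.6 under Python 3.11.15, intervals with scipy 1.17.1 and figures with matplotlib 3.10.9. The main chromosomes held 31833 of the 31869 shared regions, and gene positions came from RefSeq (GRCh38.p14, 59675 genes, 20033 of them protein-coding). Region positions are 1-based. That gene table has no strand, so "near a gene end" covers both ends within 3 kb, and gene starts came from a RefSeq promoter table (35116 starts, none on chromosome 8). Exons and introns were not annotated, and no genome sequence was used beyond that table. The rule, the regions and the 5 gene lists (114 genes) and 20 motifs were chosen with earlier results of these data known. Regions were named as the 10 most negative, the 10 highest in LNCaP, the 5 on either side of the limit (given here by their values), the 15 most negative over listed genes and those of the genes with the most regions, by the gene they lie in or else the nearest gene end. A marker and a motif are not reported here. Other values for listed genes and for promoters are named as an addition. The computation was tested on simulated lists. Alternatives were windows of 100 or 500 bp, equal numbers of summits, a minimum score of 10, other ranks, sums and limits, leaving out each library, and a replicate block.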

Additional observations from a re-analysis of the deposited data

How the results depend on the processing

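The depth behind the scores is unknown, and the set depended on how they were handled. From 2201 regions, the number that met the rule was 1260 with a score of at least 10, 3714 and 1240 with limits of -30 and -50, and 1356 with ranks among shared regions away from gene ends, and it was between 2485 and 3333 when 1 library was left out, the highest without LNCaP-resistance replicate 2. The number of shared regions changed too. As shares of the shared regions of each setting, these numbers were 6.91%, 7.04%, 11.7%, 3.90% and 8.51%, and 7.38% to 7.95% without 1 library. Only 1729 of the 2201 regions could enter the ranking away from gene ends. The share near a gene end, 21.4%, was 23.7% with a score of at least 10, 18.4% with a limit of -50, 9.54% within 1 kb, 8.996% for protein-coding genes alone and 19.4% to 22.1% without 1 library. The share inside genes was 56.9% with a limit of -50, and 54.1% to 56.3% without 1 library. With ranks away from gene ends it was 68.7%, beside 64.9% of the shared regions of that setting. The share with a LNCaP-only neighbour was 83.7% with a score of at least 10, 58.8% with equal numbers of summits, 87.8% with percentiles among all summits and 70.9% to 89.0% without 1 library, the lowest without LNCaP-resistance replicate 2. Genes of the lists with a region of the set were 19, and 10 with a score of at least 10, 12 with a limit of -50 and 11 with ranks away from gene ends. The last of these settings left out every region near a gene end before ranking. The share that was lower in the replicate whose percentiles were not used, 97.4% and 96.2% for choices in replicates 1 and 2, was 96.0% and 94.9% with a score of at least 10, 95.8% and 94.9% with equal numbers of summits, 94.9% and 93.0% with a limit of -30, 99.1% and 97.9% with a limit of -50, 94.9% and 93.3% with ranks away from gene ends, and 92.2% for the choice in replicate 2 with percentiles among all summits. The cause of these changes was not tested. The labels number the libraries of both groups 1 and 2, with the batch given as repeat1 and repeat2. Deviations of same-numbered libraries from their group means correlated with r = -0.0438 over 31869 shared regions. With 2 libraries per group this value cannot show whether same-numbered libraries were handled together. Requiring -40 or less within both numbers (replicate block) left 1441 regions. No named region changed the sign of its difference under any alternative in which it was still shared, but without LNCaP-resistance replicate 2, 14 of 39 named regions of the set had a difference above -40 and 8 had one smaller by over 1.5 times, and with percentiles among all summits 9 and 4 did. The unchanged sign tests nothing, since the regions were named by values of these same scores. Limits of -30 and -50 leave each difference as it is. By list, the luminal genes went from 8 to 4 with equal numbers of summits, 5 with a score of at least 10 and under the replicate block, and 3 with a limit of -50, and the growth factor receptors from 6 to 2 with a score of at least 10. The planned use of 100 bases around distal summits was not run, because only promoter sequences were used.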
